A study of Mus musculus with 18 samples.

Results

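Adult mouse liver was compared with liver of embryos at 16.5 dpc (days post conception), the latest embryonic stage measured. The comparison sorts hepatocyte genes into those near their adult level at 16.5 dpc and those higher in the adult. It also follows the blood and cell-division genes that were lower in the adult. It set 2 arrays of adult liver against 2 of 16.5 dpc liver, chosen from the 18 arrays of the study by the tissue and stage in their source labels. The spread and the thresholds came from all 14 liver arrays, 2 for each of 6 embryonic stages and the adult. The adult samples were livers of 10-week-old female CD-1 mice, an outbred stock, labelled as normal baseline liver. The 16.5 dpc samples were CD-1 livers of unstated sex, each from at least 5 embryos. No allele or agent is named for either group. Labels disagreed at 2 places: the age entry of the 16.5 dpc samples reads 10.5 dpc, and the treatment field of the adult samples speaks of partial hepatectomy. Titles and source names were followed. RNA was measured on Affymetrix mouse genome arrays, which give 1 brightness value (intensity) for each probe set, a group of probes directed at 1 transcript. Replicates were labelled biological, with no word on separate animals or litters, so the p-values rest on the spread between replicate arrays, pooled over the 14 liver arrays, which may be technical.

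In the mouse embryo the liver is the main organ of blood formation from mid-gestation until around birth, when blood formation moves to the bone marrow. Hepatocytes, the main cells of the liver, secrete albumin and other plasma proteins before birth. Their enzymes for urea, glucose release and drug breakdown are known to increase around and after birth. Embryonic liver cells divide, while most hepatocytes of a healthy adult liver rest outside the cell cycle. In whole tissue, fewer cells of a type and less RNA per cell cannot be told apart, which holds for each gene described here.

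The adult arrays differed from each other more than the 16.5 dpc arrays did. The 99th percentile of intensity was 1325 on adult replicate 1 and 2285 on adult replicate 2, against 2764 and 2935 on the 16.5 dpc arrays. Among bright probe sets adult replicate 1 read lower than replicate 2, with a median log2 difference of -0.62 at mean levels of 10 to 11 on the log2 scale, -0.97 at 11 to 12 and -0.50 above 12. Below 10 these medians lay between -0.04 and 0.15, and for the 16.5 dpc pair they lay between -0.05 and 0 at all levels. The spiked-in control transcript cre read 1788 and 4715 at its 3′ probe set on the adult arrays, against 3499 and 3660.3 on the 16.5 dpc arrays. The part of this in the results was not tested; values without adult replicate 1 are given for genes it moved by more than 1.5-fold. The highest reading of an array was 10056 and 9290.0 in adult liver, against 10111 and 9675 at 16.5 dpc, so the brightest genes lie near the top of the scale.

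**Figure D1:**
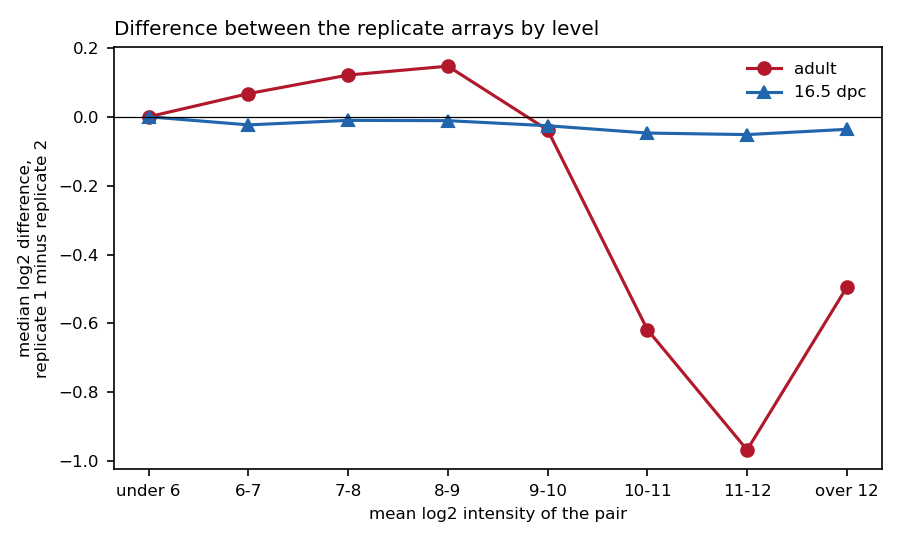
The horizontal axis gives the mean log2 intensity of a replicate pair in 8 ranges, and the vertical axis the median log2 difference between replicate 1 and replicate 2, for adult liver and 16.5 dpc liver. The adult pair departs from 0 above a level of 10, to -0.97 at 11 to 12, and the 16.5 dpc pair stays between -0.05 and 0.

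Of 18193 genes with a probe set of their own, 13348 read above the detection level of 74.3 (the median of all liver readings) on at least 2 of the 4 arrays and were tested with limma. Genes were called at an adjusted p below 0.05 together with a 2-fold change or more. In adult liver 1448 genes were higher (10.8% of those tested) and 3075 were lower (23.0%). Another 4591 genes (34.4%) were within 1 log2, meaning that all 4 arrays were above the detection level and the 95% interval of the difference lay inside 1 log2 either way. The median difference over all genes was -0.23. This split depended on scaling. Higher genes made up 32.0% of the calls with the values as deposited, 44.6% after quantile normalization and 50.1% after cyclic loess normalization, which put the median of all genes at 0.03 and 0.13. Of the higher genes, 655 (4.91% of genes tested) were above the detection level on neither 16.5 dpc array, and of the lower genes, 965 (7.23%) were above it on neither adult array. Such genes entered the test through 1 group alone and had to differ, and their folds are against readings not above the detection level. Readings below 24.4 were raised to that value before the test. Where both arrays of a group lay below it, they became equal and added no spread. The SE and p of such genes may therefore be too small and add no evidence beyond the readings. Neither is given for genes where this held in adult or 16.5 dpc liver.

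The 13 lists of hepatocyte genes held 298 genes, of which 265 had a probe set and 262 were tested. In adult liver 188 were higher, 2 were lower and 31 were within 1 log2, with a median difference of 1.83. Over all genes 10.8% were higher, 23.0% lower and 34.4% within 1 log2, with a median of -0.23. The share within 1 log2 was thus smaller among the hepatocyte genes than over all genes. Of the 188, 120 were above the detection level on both 16.5 dpc arrays, 5 on 1 of them and 63 on neither. The last class held 4.91% of all genes tested. At 16.5 dpc the 262 genes stood at a median of 28.2% of their adult level. The median was 62.3% for fatty acid oxidation, 51.6% for transcription factors, 33.2% for plasma carriers and inhibitors, 22.2% for amino acid breakdown, 14.6% for bile acids, 13.8% for conjugating and other detoxifying enzymes and 5.51% for cytochrome P450 enzymes. Without adult replicate 1, 182 of the 188 remained higher. Without adult replicate 2, 175 of them remained higher and 8 genes were lower in place of 2. After cyclic loess normalization all 188 remained higher, while of the 31 within 1 log2 only 5 remained so and 13 were called higher. After quantile normalization all 188 remained higher, 16 of the 31 remained within 1 log2 and 3 were called higher. The class within 1 log2 thus depended on scaling.

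**Figure D2:**
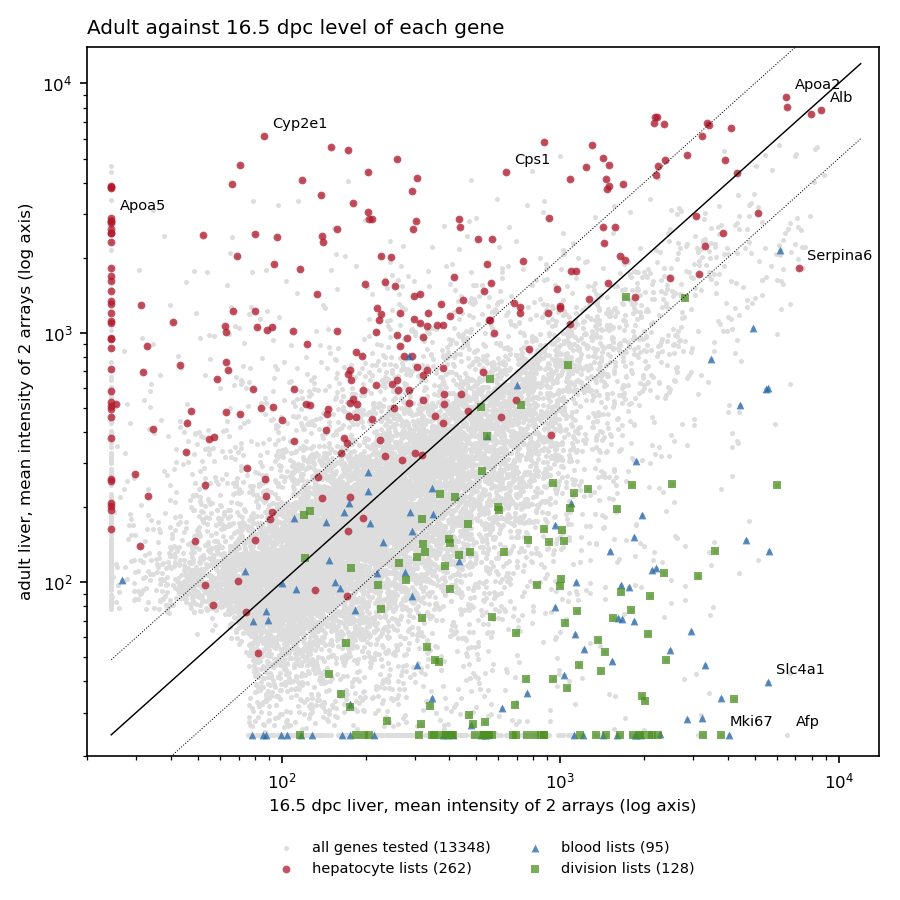
Each point is 1 gene, with its mean intensity on the 2 adult arrays (vertical, log axis) against its mean on the 2 arrays at 16.5 dpc (horizontal, log axis). Values below 24.4 are drawn at 24.4, the solid line marks equal levels and the dotted lines 2-fold differences; most hepatocyte genes lie above the solid line, most blood and division genes below it, and Alb lies close to it at the top.

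**Figure D3:**
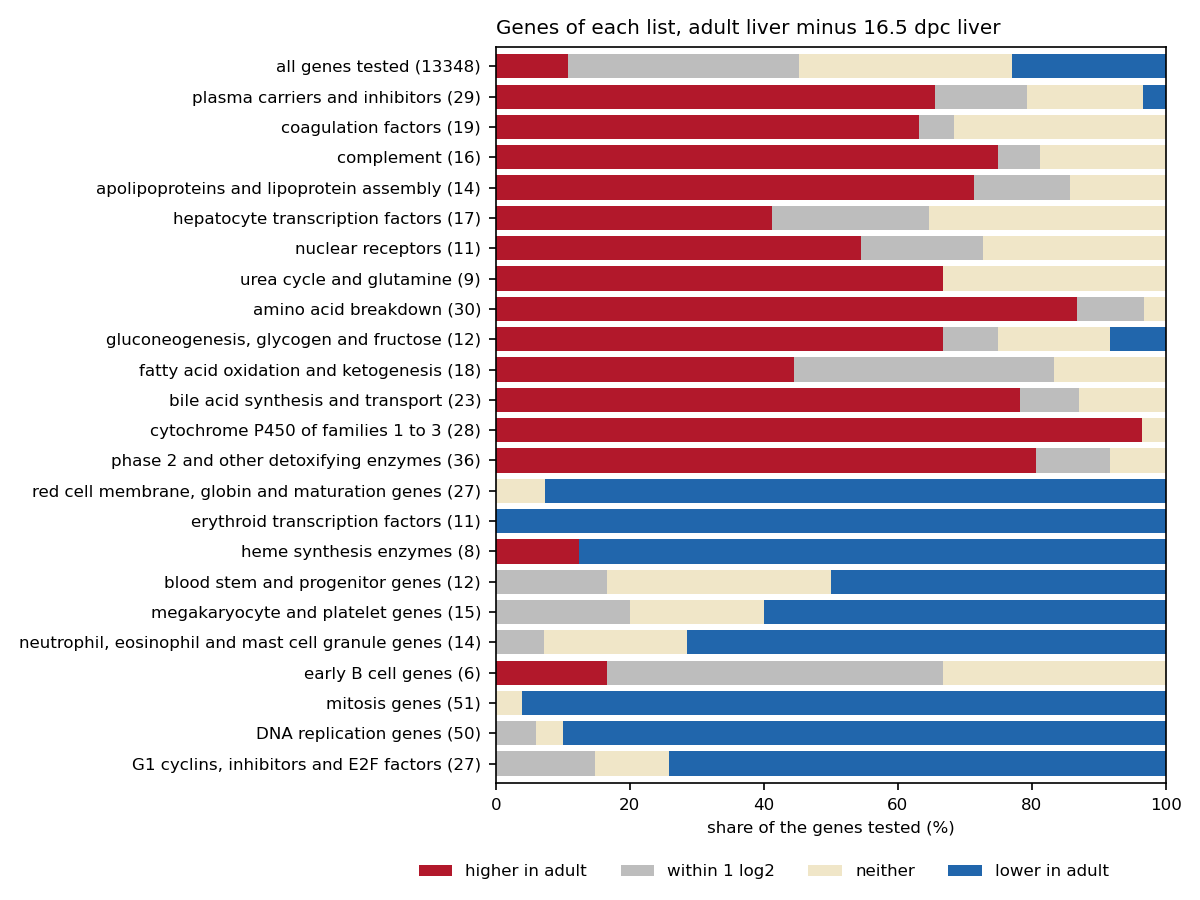
Bars give, for each list and for all genes tested, the share of genes (%) that were higher in adult liver, within 1 log2, neither, or lower in adult liver, with the number tested in brackets. Among cytochrome P450 genes 27 of 28 were higher and among mitosis genes 49 of 51 were lower, beside 10.8% higher and 23.0% lower over all genes.

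The genes of 5 abundant plasma carriers differed by less than 1 log2 between adult and 16.5 dpc liver. Alb, Ttr, Apoa1 and Apoa2 read near the highest reading of their arrays, where a difference could be hidden, so equal levels are not shown for them. Alb, which encodes albumin, the main protein of plasma, read 8205 and 7464 in adult liver, against 8695 and 8651 in 16.5 dpc liver (log2 difference -0.15, SE 0.20, limma adjusted p = 0.55, 95% interval -0.58 to 0.28). Ttr, which carries thyroid hormone, read 7416 and 7674 in adult liver, against 7856 and 8103 in 16.5 dpc liver (log2 difference -0.08, SE 0.18, limma adjusted p = 0.73). Rbp4, the carrier of vitamin A, read 2986 and 5801 in adult liver, against 4291 and 4316 in 16.5 dpc liver (log2 difference -0.05, SE 0.24, limma adjusted p = 0.88). The groups overlapped in Rbp4, and in Alb and Ttr both adult readings lay slightly below the embryonic ones. Apoa1, the main protein of high-density lipoprotein, read 8168 and 7924 in adult liver, against 6485 and 6581 in 16.5 dpc liver (log2 difference 0.30, SE 0.21, limma adjusted p = 0.26). Its partner Apoa2 read 9245 and 8414 in adult liver, against 6541 and 6411 in 16.5 dpc liver (log2 difference 0.45, SE 0.14, limma adjusted p = 0.018). All 5 were within 1 log2 with the values as deposited. After cyclic loess normalization all 5 were called higher in adult liver, at 1.48 for Alb, 1.52 for Ttr and 1.36 for Rbp4, each a change of sign, and at 1.77 for Apoa1 and 1.96 for Apoa2. Of 3 other tested probe sets of Ttr 2 had the opposite sign, with a range of -0.22 to 0.27. Serpind1, an inhibitor of thrombin, read 1198 and 1966 in adult liver, against 1459.9 and 1508 in 16.5 dpc liver and overlapped between the groups (log2 difference 0.05, SE 0.25, limma adjusted p = 0.89).

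Afp, the neighbour of Alb on chromosome 5, encodes alpha-fetoprotein, the fetal counterpart of albumin. It read 13.4 and 7.60 in adult liver, against 6510.0 and 6574 in 16.5 dpc liver (at least 268-fold lower, log2 difference -8.07). Both adult readings lay below 24.4, the floor to which all lower values were raised, so the fold is a lower bound. Of 4 other tested probe sets of Afp, 1 was higher in adult liver, at 0.86, and the lowest was at -7.88. The promoters of Alb and Afp are printed because these neighbours parted after 16.5 dpc. Each runs from 250 bases before to 50 after the transcription start (RefSeq, GRCm38.p6), 5′ to 3′, and capitals mark GTTAAT on either strand, letters of the motif of the hepatocyte factor HNF1. The Alb promoter lies at chr5:90460620-90460919, plus strand, and the Afp promoter at chr5:90490464-90490763, plus strand.
Alb: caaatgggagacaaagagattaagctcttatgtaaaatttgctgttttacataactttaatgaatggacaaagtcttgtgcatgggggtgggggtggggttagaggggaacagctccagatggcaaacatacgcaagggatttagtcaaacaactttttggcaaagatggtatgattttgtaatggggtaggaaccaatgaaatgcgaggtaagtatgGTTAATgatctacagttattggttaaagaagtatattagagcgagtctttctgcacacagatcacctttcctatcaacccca
Afp: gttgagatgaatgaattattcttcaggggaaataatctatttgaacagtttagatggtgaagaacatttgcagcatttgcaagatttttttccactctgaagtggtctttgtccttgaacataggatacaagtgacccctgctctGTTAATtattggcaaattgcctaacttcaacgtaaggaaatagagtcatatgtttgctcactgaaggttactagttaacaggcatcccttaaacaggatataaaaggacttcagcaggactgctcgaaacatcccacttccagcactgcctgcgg
Both held these letters 1 time. They were in 33 of 189 promoters (17.5%) of hepatocyte genes called higher and 3 of 29 (10.3%) of those within 1 log2, compared with 7.1% of all 32851 promoters of 27025 genes. The letters CAAAG, from the motif of HNF4, were held by 71.4% of the promoters of the higher genes, 51.7% of those within 1 log2 and 53.9% of all promoters. The genes within 1 log2 were added to these counts after the data were seen. A match is a description and not a binding site.

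Among 29 plasma carriers and inhibitors, 19 were higher in adult liver, and 5 of these were above the detection level on neither 16.5 dpc array. Over all genes 10.8% were higher, and 4.91% were higher with neither 16.5 dpc array above that level. Orm1, an acute-phase carrier, read 1968 and 3626 in adult liver, against 17.9 and 17.8 in 16.5 dpc liver (at least 109-fold higher). Hrg, which encodes histidine-rich glycoprotein, read 1742 and 3788 in adult liver, against -48.1 and -65.8 in 16.5 dpc liver (at least 105-fold higher, log2 difference 6.72). Negative readings occur in the deposited values. Mug1, a protease inhibitor of the alpha-2-macroglobulin family, read 1473 and 3741 in adult liver, against -10.9 and -16.8 in 16.5 dpc liver (at least 96.1-fold higher). For Mug1 the log2 difference was 6.59, and 7.26 without adult replicate 1. Fgl1, a secreted fibrinogen-like protein, read 1773 and 3248 in adult liver, against 24.6 and 21.5 in 16.5 dpc liver (log2 difference 6.61, SE 0.23, limma adjusted p = 2.8e-09), with 1 embryonic array at the floor. In these 4 genes adult replicate 1 was the lower of the adult pair and the groups stood far apart.

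Serpina6, which encodes the corticosteroid-binding globulin of plasma, went the other way. It read 1192 and 2440.5 in adult liver, against 7145 and 7269.9 in 16.5 dpc liver (4.23-fold lower, log2 difference -2.08, SE 0.47, limma adjusted p = 0.0031). Earlier embryonic readings were 352 and 1208 at 10.5 dpc and 7343 and 6974 at 14.5 dpc, so the gene was bright at 14.5 and 16.5 dpc and dimmer in the adult. Its difference was -1.56 without adult replicate 1 and -0.64, no longer called, after cyclic loess normalization. Serpina7, the thyroxine-binding globulin gene, chosen after its values were seen, read 186 and 258 in adult liver, against 87.8 and 88.4 in 16.5 dpc liver (2.48-fold higher, log2 difference 1.31, SE 0.31, limma adjusted p = 0.0042).

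Of 19 coagulation genes 12 were higher in adult liver, beside 10.8% over all genes. Of the 12, 10 were above the detection level on both 16.5 dpc arrays. F9, the factor missing in haemophilia B, read 957 and 1064 in adult liver, against 63.4 and 63.1 in 16.5 dpc liver (15.97-fold, log2 difference 3.997, SE 0.14, limma adjusted p = 3.2e-09). F7, which starts the extrinsic pathway, read 659.9 and 639.7 in adult liver, against 62.5 and 55.1 in 16.5 dpc liver (11.1-fold). F12 of the contact pathway read 902 and 1059.9 in adult liver, against 260.3 and 261 in 16.5 dpc liver (3.76-fold), after 3.26 and 25.5 at 10.5 dpc. Of the 12 higher genes F9 and F7 were above the detection level on neither embryonic array, so the filter fixed that their groups did not overlap. Of 16 complement genes 12 were higher, again beside 10.8%, and 10 of them were above the detection level on both 16.5 dpc arrays. C4bp, an inhibitor of complement, read 1117 and 1569 in adult liver, against 24.4 and 22.2 in 16.5 dpc liver (at least 54.2-fold higher, log2 difference 5.76). Mbl2, a lectin that binds microbial sugars, read 1612 and 3305 in adult liver, against 54.6 and 49.8 in 16.5 dpc liver (44.3-fold). C8g, of the membrane attack complex, read 1239 and 2805 in adult liver, against 241 and 251 in 16.5 dpc liver (7.58-fold), a log2 difference of 2.92, and 3.51 without adult replicate 1.

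Of 14 apolipoprotein and lipoprotein assembly genes 10 were higher, while Apoa1 and Apoa2 were within 1 log2. Over all genes 10.8% were higher and 34.4% within. Apoa5, which aids lipoprotein lipase, read 1526 and 4241 in adult liver, against -225 and -242 in 16.5 dpc liver (at least 104-fold higher, log2 difference 6.70). Without adult replicate 1 its difference was 7.44. Apoc3, an inhibitor of that lipase, read 4217 and 6619 in adult liver, against 118 and 228 in 16.5 dpc liver (32.2-fold). Apoa4 read 702 and 693 in adult liver, against 35.2 and 28.5 in 16.5 dpc liver (22.0-fold), after 325 and 130.1 at 10.5 dpc and 42.4 and 42.3 at 14.5 dpc. Of these 3, Apoc3 alone was above the detection level on the embryonic arrays.

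**Figure D4:**
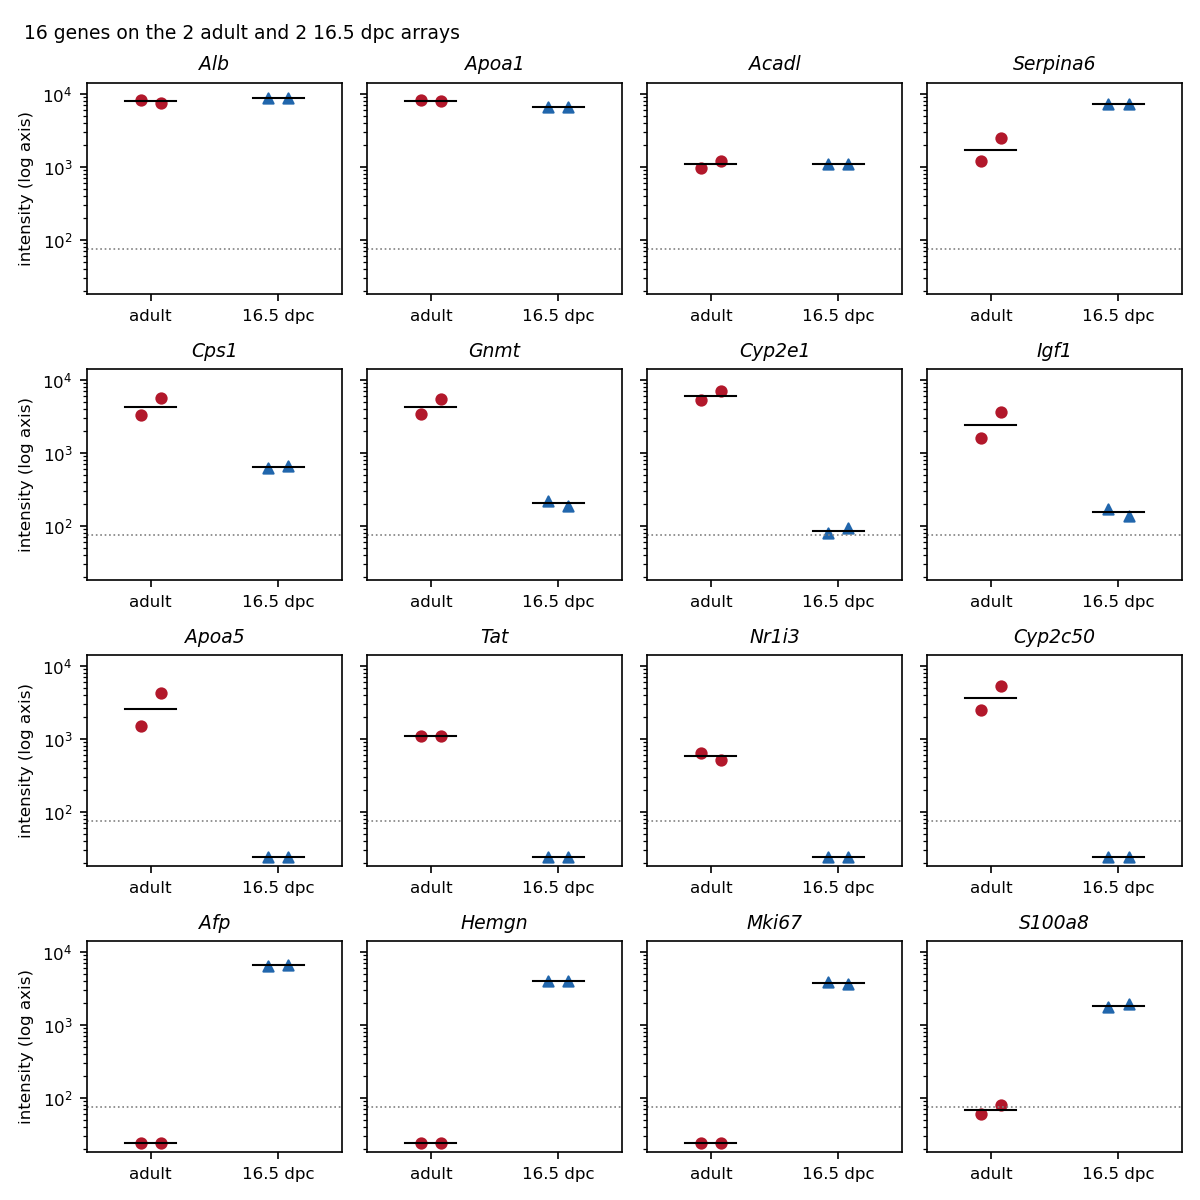
Each panel shows 1 gene on the 2 adult arrays (left) and the 2 arrays at 16.5 dpc (right), with intensity on a log axis. Readings below 24.4 are drawn at 24.4, the line is the geometric mean and the dotted line the detection level of 74.3; the first 3 genes are within 1 log2, Serpina6 and the last row are lower in adult liver, the second row is above the detection level at 16.5 dpc and higher in adult liver, and the third row is at the floor at 16.5 dpc.

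Of 17 hepatocyte transcription factors 7 were higher and 4 were within 1 log2, beside 10.8% higher and 34.4% within over all genes. All 17 stood at 10% of the adult level or more at 16.5 dpc, and 1.45% of all genes stood below 10%. Under quantile normalization 11 were higher, and under cyclic loess normalization 12. Cebpa, a driver of hepatocyte maturation, read 897 and 1019 in adult liver, against 313 and 329 in 16.5 dpc liver (2.98-fold, log2 difference 1.57, SE 0.17, limma adjusted p = 1.4e-05). Cebpb, its relative of the acute phase, read 552 and 498 in adult liver, against 184 and 167 in 16.5 dpc liver (3.00-fold). Onecut1, a factor of hepatocyte and bile duct development, read 318 and 124 in adult liver, against 26.5 and 39.5 in 16.5 dpc liver (6.13-fold), a log2 difference of 2.62, and 1.94 without adult replicate 1. Foxa3, a factor that opens liver chromatin, overlapped between the groups at 292 and 365 in adult liver, against 313 and 290.4 in 16.5 dpc liver (log2 difference 0.11, SE 0.23, limma adjusted p = 0.7). Creb3l3, a membrane-bound activator, also overlapped, at 1223 and 1509.9 in adult liver, against 1049 and 1491 in 16.5 dpc liver (log2 difference 0.12, SE 0.26, limma adjusted p = 0.72), and was called higher after cyclic loess normalization (1.09). Hnf4a, a nuclear receptor central to hepatocyte identity and chosen after its values were seen, read 828 and 1415 in adult liver, against 541 and 576 in 16.5 dpc liver, a log2 difference of 0.95. It was not called and not within 1 log2, and was called higher after quantile normalization (1.45) and without adult replicate 1 (1.34).

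Of 11 nuclear receptors 6 were higher and 2 were within 1 log2, beside 10.8% higher and 34.4% within over all genes. Nr1i3, which encodes the drug sensor CAR, read 642 and 522 in adult liver, against 4.25 and 14.3 in 16.5 dpc liver (at least 23.7-fold higher, log2 difference 4.57). Nr0b2, a repressor of bile acid synthesis, read 287 and 129.5 in adult liver, against -0.793 and -5.26 in 16.5 dpc liver (at least 7.89-fold higher). Rxra, the partner of many of these receptors, read 545 and 488 in adult liver, against 138 and 106 in 16.5 dpc liver (4.26-fold). Nr1i3 and Nr0b2 were at the floor at 16.5 dpc and Rxra was not. Ppara, the fatty acid receptor that drives fat burning, was within 1 log2 at 494 and 645 in adult liver, against 400.4 and 478 in 16.5 dpc liver (log2 difference 0.37, SE 0.18, limma adjusted p = 0.1). So was Nr3c1, the glucocorticoid receptor, at 335 and 306 in adult liver, against 231 and 237 in 16.5 dpc liver (log2 difference 0.45, SE 0.13, limma adjusted p = 0.01). Neither remained within 1 log2 after quantile or cyclic loess normalization, and with the mean over all its probe sets Ppara was called higher (1.755).

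Among the 13 hepatocyte lists, fatty acid oxidation and ketogenesis had the highest median percentage of the adult level. Of 18 genes 8 were higher and 7 within 1 log2, beside 10.8% higher and 34.4% within over all genes. The share within was thus near that over all genes. After cyclic loess normalization 13 were higher. Acadl, a mitochondrial dehydrogenase of long-chain fatty acids, overlapped between the groups at 961 and 1207 in adult liver, against 1092 and 1077 in 16.5 dpc liver (log2 difference -0.01, SE 0.12, limma adjusted p = 0.95). Hadha, of the trifunctional protein, read 818 and 900.3 in adult liver, against 806 and 739 in 16.5 dpc liver (log2 difference 0.15, SE 0.12, limma adjusted p = 0.31). Cpt1a, which admits long fatty acids into mitochondria, read 623 and 745 in adult liver, against 164.8 and 183 in 16.5 dpc liver (3.93-fold, log2 difference 1.97, SE 0.13, limma adjusted p = 4.5e-07). The peroxisomal enzyme gene Ehhadh read 921 and 889 in adult liver, against 129 and 117 in 16.5 dpc liver (7.38-fold). Acaa1b, also peroxisomal, read 2486 and 4679.9 in adult liver, against 145 and 132 in 16.5 dpc liver (24.7-fold). Cyp4a14, a fatty acid hydroxylase, read 1051 and 832 in adult liver, against 6.57 and 9.52 in 16.5 dpc liver (at least 38.3-fold higher). The pair of mitochondrial dehydrogenase genes was thus within 1 log2, and in Cpt1a and the peroxisomal genes every adult reading lay above the embryonic ones. After cyclic loess normalization Acadl (0.89) and Hadha (0.95) were no longer within 1 log2 but were not called.

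Of 9 urea cycle and glutamine genes 6 were higher, beside 10.8% over all genes. The 6 were above the detection level on both 16.5 dpc arrays. Cps1, which starts the cycle, read 3278 and 5559 in adult liver, against 622 and 652 in 16.5 dpc liver (6.71-fold, log2 difference 2.75, SE 0.30, limma adjusted p = 1.7e-05). Otc, the next enzyme, read 1305 and 2477 in adult liver, against 556 and 537 in 16.5 dpc liver (3.29-fold). Arg1, which releases urea, read 1648 and 3219.8 in adult liver, against 137 and 141 in 16.5 dpc liver (16.6-fold, log2 difference 4.05, SE 0.38, limma adjusted p = 5.3e-06). In each adult replicate 1 was the lower adult array. Slc25a15, the mitochondrial ornithine carrier, read 1119 and 1274 in adult liver, against 330.0 and 339 in 16.5 dpc liver (3.57-fold). Not every enzyme of the cycle rose. Ass1, chosen after its values were seen, had the lowest difference of the list, at -0.68, and -0.85 without adult replicate 1. It was not called.

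Of 30 genes of amino acid breakdown 26 were higher, beside 10.8% over all genes. Of the 26, 21 were above the detection level on both 16.5 dpc arrays. Tat, which breaks down tyrosine, read 1099 and 1093 in adult liver, against 6.01 and -7.85 in 16.5 dpc liver (at least 44.9-fold higher, log2 difference 5.49). Kynu, of tryptophan breakdown, read 528 and 489 in adult liver, against 25.9 and 15.2 in 16.5 dpc liver (20.2-fold), with 1 embryonic array at the floor. Gnmt, which uses S-adenosylmethionine, read 3361 and 5428 in adult liver, against 222 and 186 in 16.5 dpc liver (21.04-fold). Mat1a makes S-adenosylmethionine and read 2268 and 4386 in adult liver, against 176 and 183 in 16.5 dpc liver (17.6-fold). Gldc, of glycine breakdown, was within 1 log2 at 519 and 411 in adult liver, against 361 and 348 in 16.5 dpc liver (log2 difference 0.38, SE 0.15, limma adjusted p = 0.055). Aldh4a1, of proline breakdown, was within 1 log2 at 602 and 534 in adult liver, against 387 and 375 in 16.5 dpc liver (log2 difference 0.57, SE 0.18, limma adjusted p = 0.017) but was called higher after quantile normalization (1.01) and cyclic loess normalization (1.03).

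Of 12 genes of glucose release, glycogen and fructose 8 were higher and 1 was lower, beside 10.8% and 23.0% over all genes. G6pc, whose enzyme frees glucose, read 236 and 152 in adult liver, against -19.4 and -47.1 in 16.5 dpc liver (at least 7.77-fold higher, log2 difference 2.96). Pck1, which commits carbon to glucose, read 719 and 2222 in adult liver, against 19.7 and 12.8 in 16.5 dpc liver (at least 51.8-fold higher). Its log2 difference was 5.69, and 6.51 without adult replicate 1. Fbp1, of the same pathway, read 2153 and 6235 in adult liver, against 314 and 300.5 in 16.5 dpc liver (11.9-fold), a log2 difference of 3.58, and 4.34 without adult replicate 1. G6pc and Pck1 were at the floor at 16.5 dpc, and Fbp1 was above the detection level. Gys2, the liver glycogen synthase, overlapped between the groups at 260.3 and 389 in adult liver, against 337 and 300.1 in 16.5 dpc liver (log2 difference 0.00, SE 0.34, limma adjusted p = 1). Pklr, the liver pyruvate kinase, was lower at 389 and 387 in adult liver, against 896 and 965 in 16.5 dpc liver (2.39-fold, log2 difference -1.26, SE 0.15, limma adjusted p = 2.6e-05). It was no longer called after quantile (-0.88) or cyclic loess normalization (-0.47).

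Of 23 bile acid genes 18 were higher, 9 of them above the detection level on neither 16.5 dpc array. Over all genes 10.8% were higher, and 4.91% were higher with neither 16.5 dpc array above that level. Akr1c6, a steroid dehydrogenase, read 2635 and 5018 in adult liver, against 22.0 and 3.61 in 16.5 dpc liver (at least 149-fold higher, log2 difference 7.22). Cyp27a1, of the alternative synthesis pathway, read 1002 and 1217 in adult liver, against 36.1 and 45.4 in 16.5 dpc liver (27.3-fold). Slc10a1, the sodium-driven bile acid carrier, read 1621 and 3222 in adult liver, against 108 and 84.6 in 16.5 dpc liver (23.9-fold). Slco1a1, an organic anion carrier, read 778 and 961 in adult liver, against -1.18 and 1.90 in 16.5 dpc liver (at least 35.4-fold higher). Abcb4, which moves phospholipid into bile, was within 1 log2 at 617 and 457 in adult liver, against 699 and 685 in 16.5 dpc liver (log2 difference -0.38, SE 0.19, limma adjusted p = 0.11). Slco1b2 was within 1 log2 on the probe set used, at 232 and 130.1 in adult liver, against 188 and 204 in 16.5 dpc liver, but its 3 other probe sets were 5.21 to 6.16 log2 higher in adult liver, so its class is uncertain.

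Of 28 cytochrome P450 genes, whose enzymes oxidise drugs and steroids, 27 were higher, 16 of them above the detection level on neither 16.5 dpc array. Over all genes 10.8% were higher, and 4.91% were higher with neither 16.5 dpc array above that level. The P450 level at 16.5 dpc was below 10% of the adult one for 19 genes (67.9%), beside 1.45% of all genes. Cyp2c50 read 2506 and 5244 in adult liver, against -34.4 and -45.5 in 16.5 dpc liver (at least 148-fold higher, log2 difference 7.21). Cyp2j5 read 1414 and 2238 in adult liver, against -53.7 and -61.7 in 16.5 dpc liver (at least 72.8-fold higher). Cyp3a25 read 1252 and 3758 in adult liver, against -6.13 and -8.20 in 16.5 dpc liver (at least 88.8-fold higher), a log2 difference of 6.47, and 7.27 without adult replicate 1. Members of these families are close in sequence, and a probe set may read more than 1 of them. Of 36 conjugating and other detoxifying enzymes 29 were higher, 15 of them above the detection level on neither 16.5 dpc array. The shares over all genes were again 10.8% and 4.91%. Aldh1a1, which oxidises retinal, read 2541 and 5105 in adult liver, against 10.9 and 2.25 in 16.5 dpc liver (at least 147-fold higher). Ugt3a2, a glycosyltransferase, read 966 and 1652 in adult liver, against -10.4 and -15.2 in 16.5 dpc liver (at least 51.7-fold higher). Gsta4, a glutathione transferase, overlapped between the groups at 591 and 384 in adult liver, against 497 and 436 in 16.5 dpc liver.

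Genes known to mark the zones of the adult lobule were higher for 9 of 11 periportal and 8 of 15 pericentral genes. Over all genes 10.8% were higher. Periportal Cyp2f2 read 3177 and 4698 in adult liver, against 69.0 and 63.7 in 16.5 dpc liver (58.3-fold). Pericentral Cyp2e1, which oxidises ethanol, read 5294 and 6985 in adult liver, against 79.1 and 93.2 in 16.5 dpc liver (70.8-fold, log2 difference 6.15, SE 0.17, limma adjusted p = 5.4e-10). Pericentral Cyp1a2 read 1269.6 and 2125 in adult liver, against 0.978 and -7.48 in 16.5 dpc liver (at least 67.2-fold higher). Axin2, a Wnt target, was lower at 52.8 and 128 in adult liver, against 159 and 204 in 16.5 dpc liver (log2 difference -1.13, SE 0.37, limma adjusted p = 0.024), but at -0.50 without adult replicate 1 and -0.95 without 16.5 dpc replicate 2 it was not called, nor after quantile (-1.01) or cyclic loess normalization (-0.93), nor with the mean over all its probe sets (-0.69).

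The growth hormone and insulin-like growth factor list had 7 of 17 genes higher and 4 lower, beside 10.8% higher and 23.0% lower over all genes. The lower count was thus near the share over all genes. Igf2, the imprinted growth factor of the embryo, read 206 and 145 in adult liver, against 4625 and 4909.6 in 16.5 dpc liver (27.6-fold lower, log2 difference -4.79, SE 0.17, limma adjusted p = 2.9e-09). Igf1, the main growth factor of postnatal life, read 1603 and 3649.8 in adult liver, against 171 and 137 in 16.5 dpc liver (15.8-fold higher, log2 difference 3.99, SE 0.32, limma adjusted p = 1.5e-06), and its difference was 4.58 without adult replicate 1. The pair thus moved in opposite directions. The receptor gene Igf1r read 78.6 and 93.0 in adult liver, against 237 and 215 in 16.5 dpc liver (2.64-fold lower), and it was not called with the mean over all its probe sets (-0.47). Igf2r, which clears IGF2, read 112 and 79.6 in adult liver, against 508 and 507 in 16.5 dpc liver (5.37-fold lower). Igfbp1, a binding protein, read 44.8 and 244 in adult liver, against 949 and 979 in 16.5 dpc liver (9.23-fold lower), a log2 difference of -3.21, and -1.98 without adult replicate 1. Igfbp2 read 928 and 523 in adult liver, against 70.2 and 84.2 in 16.5 dpc liver (9.06-fold higher), after 410.0 and 466 at 10.5 dpc and 164.7 and 121 at 14.5 dpc. Mup3, a growth-hormone-dependent urinary protein, read 3359 and 5444 in adult liver, against -6.38 and 13.96 in 16.5 dpc liver (at least 175-fold higher); Mup genes are near-identical, and which copies its probes read is uncertain.

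Of 8 genes known as female-biased in adult liver 5 were higher, and of 10 known as male-biased 6 were higher. Over all genes 10.8% were higher. Female-biased Sult3a1, a sulfotransferase, read 2240.1 and 4597 in adult liver, against 3.55 and -0.225 in 16.5 dpc liver (at least 131-fold higher). Male-biased Cyp2d9 read 562 and 494 in adult liver, against 10.8 and 4.37 in 16.5 dpc liver (at least 21.6-fold higher). Male-biased Cyp7b1, a sterol hydroxylase, read 629.6 and 356 in adult liver, against 6.72 and 12.7 in 16.5 dpc liver (at least 19.4-fold higher). Y-linked Eif2s3y read -1.74 and 2.90 in adult liver, against 238 and 212 in 16.5 dpc liver. Xist, which silences an X chromosome, read 649 and 820.4 in adult liver, against 414 and 416 in 16.5 dpc liver and was not called, except after cyclic loess normalization (1.59). The adult arrays lacked the Y-linked signal that the embryonic arrays held, so stage and sex cannot be told apart.

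Of 13 iron genes 8 were higher and 2 lower, beside 10.8% higher and 23.0% lower over all genes. Hamp, the gene of hepcidin, the hormone that blocks iron release, read 2268 and 4239.6 in adult liver, against 79.5 and 115 in 16.5 dpc liver (32.4-fold, log2 difference 5.02, SE 0.27, limma adjusted p = 7.8e-08). Its copy Hamp2 read 1024 and 3666 in adult liver, against 189.8 and 299.6 in 16.5 dpc liver (8.12-fold), a log2 difference of 3.02, and 3.94 without adult replicate 1; the copies are similar in sequence. Tmprss6, a protease that restrains hepcidin, read 952 and 1313 in adult liver, against 217 and 196 in 16.5 dpc liver (5.43-fold). Tfrc, the transferrin receptor through which red cell precursors take up iron, read 749 and 444 in adult liver, against 5384 and 5589 in 16.5 dpc liver (9.52-fold lower, log2 difference -3.25, SE 0.21, limma adjusted p = 2.5e-07). The ferritin gene Fth1 was within 1 log2 at 4809.8 and 5629 in adult liver, against 7024 and 7046 in 16.5 dpc liver, at a log2 difference of -0.44, and was called higher after cyclic loess normalization, with the opposite sign.

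Of 11 circadian output genes 4 were higher, beside 10.8% over all genes. Nr1d2, a repressor of the clock, read 426 and 469 in adult liver, against 37.4 and 36.3 in 16.5 dpc liver (12.1-fold, log2 difference 3.601, SE 0.20, limma adjusted p = 1.0e-07). Nr1d1, its relative, read 109 and 159.8 in adult liver, against 11.2 and 4.69 in 16.5 dpc liver (at least 5.39-fold higher). Arntl, the clock's core activator, was within 1 log2 at 139 and 123 in adult liver, against 118 and 112 in 16.5 dpc liver (log2 difference 0.19, SE 0.20, limma adjusted p = 0.46). The labels used here give no hour of collection.

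Most genes of the 8 blood lists were lower in adult liver. These lists covered red cells, erythroid factors, embryonic globins, heme enzymes, progenitors, platelets, granules and early B cells. Lists of T and natural killer cell, macrophage and antigen presentation genes were not among them and are described apart. The 8 lists held 122 genes, of which 95 were tested, and 70 were lower in adult liver, 2 were higher (Alas1 and Dntt) and 9 were within 1 log2, with a median of -3.11, beside 23.0% lower and -0.23 over all genes. Of the 70, 40 were above the detection level on neither adult array, a class that held 7.23% of all genes tested. Of 27 genes of red cell membrane, globin and maturation 25 were lower. Hemgn, a nuclear protein of red cell precursors, read 12.2 and 10.4 in adult liver, against 4025 and 4068 in 16.5 dpc liver (at least 166-fold lower, log2 difference -7.37). Slc4a1, the anion exchanger of the red cell membrane, read 31.6 and 47.8 in adult liver, against 5556 and 5595 in 16.5 dpc liver (143-fold, log2 difference -7.16, SE 0.25, limma adjusted p = 3.2e-09). Ermap, a red cell membrane protein, read 33.6 and 23.3 in adult liver, against 3244 and 3201 in 16.5 dpc liver (112-fold), with 1 adult array at the floor. The beta-globin gene Hbb-b2, chosen after its values were seen, read 81.6 and 45.9 in adult liver, against 2859 and 3060.2 in 16.5 dpc liver (48.3-fold). All 4 were bright at 16.5 dpc and dim in the adult. The probe set of Hba-a1, an alpha-globin gene chosen after its values were seen, read near the detection level in both groups, at 76.5 and 63.6 in adult liver, against 73.9 and 83.8 in 16.5 dpc liver (log2 difference -0.17, SE 0.18, limma adjusted p = 0.43). Globin genes are near-identical copies, and which of them a probe set reads is uncertain.

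All 11 erythroid transcription factors were lower, beside 23.0% over all genes. Klf1, which switches on adult globin, read 61.3 and 31.8 in adult liver, against 3269 and 3382 in 16.5 dpc liver (75.3-fold, log2 difference -6.23, SE 0.24, limma adjusted p = 6.8e-09). Tal1, a master factor of blood, read 16.3 and 27.5 in adult liver, against 1678 and 1512 in 16.5 dpc liver (61.5-fold), with 1 adult array at the floor. The embryonic globins were lower as well. Hbb-bh1 read 17.6 and 24.8 in adult liver, against 549 and 530.2 in 16.5 dpc liver (21.9-fold), with 1 adult array at the floor. Its earlier readings were 6562 and 6247 at 10.5 dpc and 506 and 653 at 14.5 dpc. Hba-x read 84.6 and 59.1 in adult liver, against 1653 and 1566 in 16.5 dpc liver (22.8-fold). Hbb-y read 116 and 188 in adult liver, against 1848 and 1849.8 in 16.5 dpc liver (12.6-fold).

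Of 8 heme synthesis enzymes 7 were lower and 1 was higher, beside 23.0% lower and 10.8% higher over all genes. Alas2, the first enzyme in red cell precursors, read 138 and 156 in adult liver, against 4559.6 and 4745 in 16.5 dpc liver (31.6-fold lower, log2 difference -4.98, SE 0.27, limma adjusted p = 7.1e-08). Alas1, the first enzyme in other cells, read 987 and 633 in adult liver, against 284 and 290.1 in 16.5 dpc liver (2.75-fold higher, log2 difference 1.46, SE 0.18, limma adjusted p = 4.1e-05). The 2 forms of the first step thus moved in opposite directions. The enzymes that follow serve both cell types. Alad read 1196 and 890.4 in adult liver, against 5012 and 4815 in 16.5 dpc liver (4.76-fold). Uros read 207 and 165.3 in adult liver, against 1952 and 1983 in 16.5 dpc liver (10.6-fold). Urod read 553 and 476 in adult liver, against 4377 and 4495 in 16.5 dpc liver (8.65-fold). These 3 stayed above the detection level in adult liver. Cpox read 745 and 829 in adult liver, against 3327 and 3659 in 16.5 dpc liver (4.44-fold). Fech, which inserts the iron, read 628 and 576 in adult liver, against 5475 and 5653 in 16.5 dpc liver (9.25-fold). Ppox read 22.2 and 49.5 in adult liver, against 774 and 744 in 16.5 dpc liver (21.8-fold), with 1 adult array at the floor, and of its 2 other probe sets 1 showed 0.05 log2. After cyclic loess normalization Alad (-0.99) and Cpox (-0.91) were no longer called.

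Stem cell, platelet and granule genes were lower in part, beside 23.0% lower over all genes. Of 12 stem and progenitor genes 6 were lower. Myb, a factor needed for definitive blood, read 19.6 and 9.17 in adult liver, against 518 and 524 in 16.5 dpc liver (at least 21.3-fold lower, log2 difference -4.42). Kit, the receptor of stem cell factor, read 28.1 and 13.3 in adult liver, against 177 and 154 in 16.5 dpc liver (6.29-fold), with 1 adult array at the floor. Of 15 megakaryocyte and platelet genes 9 were lower. Ppbp, a platelet chemokine, read 11.5 and 12.2 in adult liver, against 1179 and 1236 in 16.5 dpc liver (at least 49.4-fold lower). Pf4, platelet factor 4, read 111 and 112 in adult liver, against 2051 and 2222 in 16.5 dpc liver (19.1-fold) and stayed above the detection level in the adult. Of 14 granule genes of neutrophils, eosinophils and mast cells 10 were lower. S100a8, of neutrophils, read 59.7 and 79.9 in adult liver, against 1747 and 1945 in 16.5 dpc liver (26.7-fold, log2 difference -4.74, SE 0.17, limma adjusted p = 4.1e-09), after 10.6 and 16.5 at 10.5 dpc. Mpo, the neutrophil peroxidase, read 91.6 and 100.0 in adult liver, against 1799 and 1721 in 16.5 dpc liver (18.4-fold). Of 6 early B cell genes 1 was higher and 3 were within 1 log2, and of 7 T and natural killer cell genes 1 was higher and 2 were within 1 log2, beside 10.8% higher and 34.4% within over all genes. The rest of both lists was not called. Dntt, which adds bases to antigen receptor genes, read 114 and 90.0 in adult liver, against 19.7 and 33.5 in 16.5 dpc liver (3.54-fold). Cd8a, a T cell coreceptor, read 395 and 789 in adult liver, against 101 and 185 in 16.5 dpc liver (4.08-fold, log2 difference 2.03, SE 0.34, limma adjusted p = 0.00044), and was not called with the mean over all its probe sets (0.66).

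**Figure D5:**
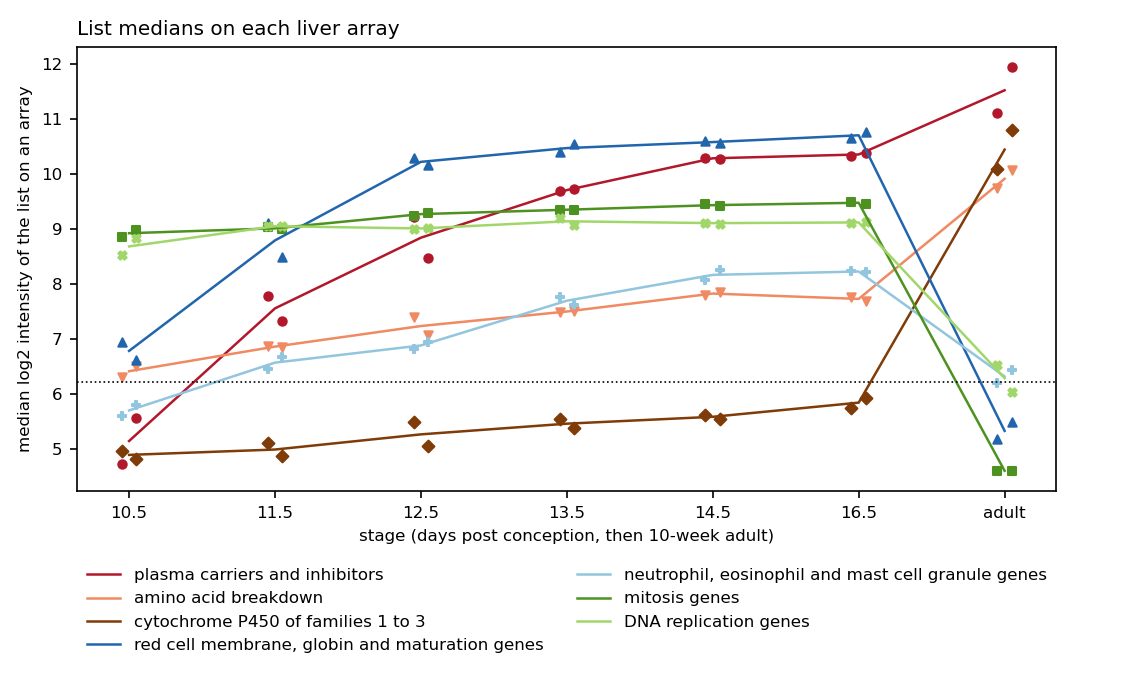
The vertical axis gives the median log2 intensity of each of 7 lists on each liver array, over 6 embryonic stages and the adult (horizontal axis); the dotted line is the detection level. Readings below 24.4 were raised to it first. Mitosis genes stand at 4.61 on both adult arrays, which is that floor on the log2 scale, and at 9.49 and 9.46 at 16.5 dpc. The cytochrome P450 list stands at 10.1 and 10.8 on the adult arrays and at 5.76 and 5.94 at 16.5 dpc.

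Most cell division genes were lower in adult liver in each of the 3 lists. Together the lists held 134 genes, of which 128 were tested, and 114 were lower and 7 within 1 log2, with a median of -3.61, beside 23.0% lower over all genes. Of the 114, 66 were above the detection level on neither adult array, a class that held 7.23% of all genes tested. Of 51 mitosis genes 49 were lower. Mki67, the proliferation marker Ki-67, read 24.1 and 17.0 in adult liver, against 3947 and 3641 in 16.5 dpc liver (at least 155-fold lower, log2 difference -7.28). Ube2c, which helps destroy cyclins, read 15.7 and 10.7 in adult liver, against 3205 and 3309.9 in 16.5 dpc liver (at least 133-fold lower). Ccna2, the cyclin of S phase and mitotic entry, read 11.4 and 16.6 in adult liver, against 2295 and 2189 in 16.5 dpc liver (at least 91.8-fold lower, log2 difference -6.52). All 3 were at the floor on both adult arrays. Top2a, which untangles chromosomes, read 12.9 and 9.18 in adult liver, against 2133 and 2136 in 16.5 dpc liver (at least 87.4-fold lower), though of its 2 other probe sets 1 was 1.47 log2 higher.

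Of 50 DNA replication genes 45 were lower, beside 23.0% over all genes. Of the 45, 18 were above the detection level on both adult arrays, and among the mitosis genes 8 of 49 were. Rrm2, of the enzyme that makes deoxynucleotides, read 55.3 and 12.7 in adult liver, against 4054 and 4363 in 16.5 dpc liver (114-fold), with 1 adult array at the floor. Both adult readings lay below the detection level, so the fold is not an exact ratio. The difference was -6.84 with both adult arrays, and a bound of -7.43 without adult replicate 1, since the other adult array was at the floor. Uhrf1, which helps copy DNA methylation, read 12.7 and 1.26 in adult liver, against 1249 and 1110.1 in 16.5 dpc liver (at least 48.2-fold lower). Mcm5, of the replicative helicase, read 66.3 and 31.2 in adult liver, against 2380.4 and 2424 in 16.5 dpc liver (52.8-fold, log2 difference -5.72, SE 0.26, limma adjusted p = 1.9e-08). Pole2, of DNA polymerase epsilon, overlapped between the groups at 459 and 546 in adult liver, against 457 and 586 in 16.5 dpc liver. Of 27 G1 cyclins, inhibitors and E2F factors 20 were lower, again beside 23.0% over all genes. E2f2, a driver of S phase, read 26.4 and 12.9 in adult liver, against 1882 and 2007 in 16.5 dpc liver (76.5-fold), with 1 adult array at the floor. The imprinted inhibitor Cdkn1c read 6.60 and 15.2 in adult liver, against 1753 and 1890.5 in 16.5 dpc liver (at least 74.5-fold lower). Rb1, which holds E2F factors in check, read 54.5 and 62.5 in adult liver, against 1335 and 1392 in 16.5 dpc liver (23.4-fold lower), after 108 and 121 at 10.5 dpc. Both drivers and brakes of the cycle were therefore among the lower genes. Ccnd1, a cyclin of growth signals, overlapped between the groups at 787 and 521 in adult liver, against 568 and 549 in 16.5 dpc liver, and was called higher after cyclic loess normalization (1.02).

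Promoters of division genes are printed because most mitosis and most replication genes were lower together. In the promoters of Ube2c and Mki67 capitals mark TTTGAA on either strand, the cell cycle homology region (CHR) through which mitotic genes are repressed in resting cells, and CCAAT on either strand, the motif of the factor NF-Y. Both run 5′ to 3′ from 250 bases before to 50 after the start (RefSeq, GRCm38.p6), at chr2:164769679-164769978, plus strand for Ube2c and chr7:135716330-135716629, minus strand for Mki67.
Ube2c: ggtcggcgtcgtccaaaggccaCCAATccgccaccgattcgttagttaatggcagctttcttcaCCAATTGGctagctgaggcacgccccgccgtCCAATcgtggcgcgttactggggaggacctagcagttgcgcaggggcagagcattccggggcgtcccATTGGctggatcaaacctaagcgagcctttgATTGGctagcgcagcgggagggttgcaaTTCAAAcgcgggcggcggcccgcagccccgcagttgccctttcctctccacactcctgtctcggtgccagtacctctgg
Mki67: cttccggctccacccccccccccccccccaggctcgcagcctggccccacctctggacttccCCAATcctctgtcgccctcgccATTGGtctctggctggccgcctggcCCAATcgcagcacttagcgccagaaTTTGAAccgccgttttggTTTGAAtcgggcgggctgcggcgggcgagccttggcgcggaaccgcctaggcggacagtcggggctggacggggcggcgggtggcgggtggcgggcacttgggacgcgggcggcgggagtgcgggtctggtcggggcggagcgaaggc
Ube2c held the CHR letters 1 time and CCAAT 6 times, with 2 of the 6 overlapping, and Mki67 held them 2 and 3 times. Of the 49 mitosis genes called lower, 40 matched the RefSeq table, with 43 promoters. The CHR letters were in 34 of 43 (79.1%), compared with 17.9% of all promoters, and CCAAT in 35 of 43 (81.4%), compared with 37.4%. Of the 45 replication genes called lower, 37 matched, with 48 promoters, of which 5 (10.4%) held the CHR letters. For E2F the letters TTTCCCG and also TTTGGCG and also TTTCGCG were searched on both strands. They were in 20 of 48 replication promoters (41.7%) and 7 of 43 mitosis promoters (16.3%), compared with 5.58% of all promoters. Mcm5 is printed with its E2F letters in capitals, where 2 matches on opposite strands overlap, at chr8:75109259-75109558, plus strand.
Mcm5: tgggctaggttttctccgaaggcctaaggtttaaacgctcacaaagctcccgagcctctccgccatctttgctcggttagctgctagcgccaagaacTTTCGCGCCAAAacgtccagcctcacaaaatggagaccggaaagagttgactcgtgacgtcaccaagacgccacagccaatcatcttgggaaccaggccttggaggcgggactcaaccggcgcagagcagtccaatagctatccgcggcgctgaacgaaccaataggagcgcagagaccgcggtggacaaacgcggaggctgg
Promoters of red cell genes called lower were added after the data were seen, and 2 of 20 held the CHR letters and 1 of 20 the E2F letters.

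Fetal liver genes other than Afp were lower too. Of 13 oncofetal and hepatoblast genes 10 were lower, beside 23.0% over all genes. Cd24a, a surface protein of immature cells and of red cell precursors, read 41.5 and 45.1 in adult liver, against 6668 and 6676 in 16.5 dpc liver (154-fold, log2 difference -7.27, SE 0.11, limma adjusted p = 2.2e-11). Bex1 read 20.3 and 14.01 in adult liver, against 3049 and 3179 in 16.5 dpc liver (at least 127-fold lower). Of 15 genes of the imprinted growth network, which are expressed from 1 parental copy, 12 were lower and 1 was higher. Dlk1, a hepatoblast surface protein, read 28.2 and 43.4 in adult liver, against 3258 and 3605 in 16.5 dpc liver (97.9-fold, log2 difference -6.61, SE 0.19, limma adjusted p = 9.9e-10). Plagl1, a regulator of the network, read 106 and 128 in adult liver, against 3424 and 3518 in 16.5 dpc liver (29.7-fold). Grb10, a brake on insulin signals, read 70.4 and 94.5 in adult liver, against 2464 and 2539 in 16.5 dpc liver (30.7-fold). Slc38a4, an amino acid carrier, was the higher one at 897 and 1524 in adult liver, against 415 and 416 in 16.5 dpc liver (2.81-fold).

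Pairs of related enzymes and carriers were listed as fetal and adult members. Of 12 fetal members 8 were lower, 1 was higher and 3 were within 1 log2, and of 12 adult members 8 were higher and 1 was lower. Over all genes 10.8% were higher and 23.0% lower. The glucose carrier Slc2a1, also of red cell precursors, read 99.2 and 60.4 in adult liver, against 3609 and 3480.3 in 16.5 dpc liver (45.8-fold lower). The liver carrier Slc2a2 read 920.4 and 1233 in adult liver, against 373 and 349.8 in 16.5 dpc liver (2.95-fold higher). The desaturase Scd2 read 40.7 and 18.2 in adult liver, against 3214 and 3176 in 16.5 dpc liver (101-fold lower), with 1 adult array at the floor. Its relative Scd1 read 2905 and 6034 in adult liver, against 821 and 758 in 16.5 dpc liver (5.31-fold higher). These carriers and desaturases moved in opposite directions within each pair. Other pairs did not: the pyruvate kinase Pkm read 82.6 and 59.2 in adult liver, against 565 and 585 in 16.5 dpc liver (8.22-fold lower), and Pklr was lower too. Cyp3a16, known as a fetal form, read 321 and 198 in adult liver, against 15.2 and -9.18 in 16.5 dpc liver (at least 10.3-fold higher). Its adult relative Cyp3a11 read 4759.8 and 6359.5 in adult liver, against 144 and 156 in 16.5 dpc liver (36.7-fold higher), and the 2 are similar in sequence. The alcohol dehydrogenase Adh1 read 4059 and 5897 in adult liver, against 252 and 268 in 16.5 dpc liver (18.8-fold higher), while Adh7 was within 1 log2 at 192 and 156 in adult liver, against 127 and 138 in 16.5 dpc liver.

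Among 22 Kupffer cell and macrophage genes 3 were higher, 3 lower and 8 within 1 log2, beside 10.8%, 23.0% and 34.4% of all genes, and their median difference was -0.30. Clec4f, a lectin of Kupffer cells, read 497 and 339 in adult liver, against 76.7 and 64.9 in 16.5 dpc liver (5.83-fold). Vsig4, their complement receptor, read 339 and 289 in adult liver, against 27.1 and 18.5 in 16.5 dpc liver (12.2-fold), with 1 embryonic array at the floor. Cd163, the haemoglobin scavenger receptor, read 166 and 106 in adult liver, against -3.93 and 6.84 in 16.5 dpc liver (at least 5.42-fold higher). The 3 lower genes were Hmox1, Fcgr1 and Lgals3. Lgals3, a galectin, read 50.6 and 36.2 in adult liver, against 127 and 136 in 16.5 dpc liver (log2 difference -1.62, SE 0.27, limma adjusted p = 0.00045). Fcgr1, an antibody receptor, read 72.1 and 73.6 in adult liver, against 155 and 156 in 16.5 dpc liver (log2 difference -1.09, SE 0.17, limma adjusted p = 0.00026), but its other probe set showed 0.35. Hmox1, which breaks down heme, read 250.4 and 246 in adult liver, against 512 and 494 in 16.5 dpc liver (log2 difference -1.02, SE 0.14, limma adjusted p = 8.0e-05), and it was not called without 16.5 dpc replicate 1 (-0.99). After cyclic loess normalization Fcgr1 (-0.92) and Hmox1 (-0.46) were not called, and Hmox1 was not called after quantile normalization (-0.70) or median centring (-0.96) either. C1qb, a complement gene of macrophages, overlapped between the groups at 445 and 364 in adult liver, against 418 and 351 in 16.5 dpc liver. Of 12 antigen presentation genes 8 were higher, beside 10.8% over all genes. Cd74, which guides antigen presentation, read 553 and 774 in adult liver, against 73.4 and 63.7 in 16.5 dpc liver (9.57-fold, log2 difference 3.26, SE 0.21, limma adjusted p = 2.5e-07). H2-Aa, of class II, read 434 and 382 in adult liver, against 50.7 and 58.1 in 16.5 dpc liver (7.51-fold). Of 15 sinusoidal endothelial genes 2 were higher, 1 was lower and 5 were within 1 log2. The shares higher and within were near the 10.8% and 34.4% over all genes, and the share lower was below the 23.0%. The called genes were Dnase1l3, Bmp2 and Lyve1. Dnase1l3, a secreted nuclease, read 319 and 383 in adult liver, against 29.4 and 21.7 in 16.5 dpc liver (13.03-fold), with 1 embryonic array at the floor. Bmp2, a signal that raises hepcidin, read 111 and 111 in adult liver, against 49.4 and 54.8 in 16.5 dpc liver (2.13-fold). Lyve1, a hyaluronan receptor, read 100.2 and 81.9 in adult liver, against 207 and 224 in 16.5 dpc liver (2.38-fold lower) and was not called after cyclic loess normalization (-0.98).

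Of 16 stellate and mesenchymal genes 7 were lower and 3 higher, beside 23.0% lower and 10.8% higher over all genes. The collagen gene Col1a1 read 22.7 and 31.5 in adult liver, against 396 and 393 in 16.5 dpc liver (14.2-fold), with 1 adult array at the floor. Col3a1 read 333 and 466 in adult liver, against 1392 and 1434 in 16.5 dpc liver (3.58-fold), and was not called after cyclic loess normalization (-0.73). Ecm1, a matrix protein, read 632 and 574 in adult liver, against 56.0 and 64.2 in 16.5 dpc liver (10.04-fold higher). Lrat, which stores vitamin A, read 87.0 and 74.9 in adult liver, against 33.4 and 47.9 in 16.5 dpc liver (log2 difference 1.01, SE 0.21, limma adjusted p = 0.0017), but at 0.90 without adult replicate 1 and 0.75 without 16.5 dpc replicate 1 it was not called, nor after cyclic loess normalization (0.89) or with the mean over all its probe sets (0.51). Pdgfrb, a growth factor receptor, overlapped between the groups at 125 and 110.2 in adult liver, against 113 and 93.1 in 16.5 dpc liver. Of 7 bile duct genes 1 was lower and 4 were within 1 log2, beside 23.0% lower and 34.4% within over all genes. Sctr, the secretin receptor, read 29.8 and 61.7 in adult liver, against 291 and 301 in 16.5 dpc liver (6.90-fold lower). Of 2 mesothelial genes tested, Lrrn4 was within 1 log2 at 107 and 100.4 in adult liver, against 96.1 and 109.9 in 16.5 dpc liver.

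Markers of other tissues were read as well. Of 15 genes of pancreas, fat and muscle tested 4 were lower in adult liver and 8 within 1 log2, beside 23.0% lower and 34.4% within over all genes. The 21 genes of that list with a probe set summed to 2894 and 3583 on the adult arrays, against 5121 and 5355 on the 16.5 dpc arrays, and 11 and 12 of them were above the detection level in the adult, against 14 and 15 at 16.5 dpc. Actc1, of heart muscle, read -5.56 and 3.22 in adult liver, against 798 and 782 in 16.5 dpc liver (at least 32.4-fold lower). Mylpf, of skeletal muscle, read 3.26 and 16.1 in adult liver, against 367 and 369 in 16.5 dpc liver (at least 15.1-fold lower). Acta1, of skeletal muscle, read 76.7 and 157 in adult liver, against 366 and 559 in 16.5 dpc liver (4.13-fold lower). Their part in the genes lower in adult liver was not tested. The pancreatic enzyme gene Ctrb1 overlapped between the groups at 597 and 806 in adult liver, against 703 and 714 in 16.5 dpc liver, and so did Cela2a at 209 and 214 in adult liver, against 242 and 203 in 16.5 dpc liver. Whether these readings come from the named transcripts was not tested.

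Over all genes, the 10 largest increases were Ces1c, Mup3, Akr1c6, Cyp2c50, Aldh1a1, Sult3a1, Pigr, Orm1, Hrg and Apoa5, passing over predicted genes. Ces1c, a carboxylesterase of plasma, read 3654 and 5703 in adult liver, against 6.41 and -0.156 in 16.5 dpc liver (at least 187-fold higher, log2 difference 7.55). Pigr, which carries antibodies into bile, read 2425 and 3072 in adult liver, against 1.60 and 9.05 in 16.5 dpc liver (at least 112-fold higher, log2 difference 6.80). All 10 were at the floor on both 16.5 dpc arrays, so their folds are lower bounds. The 10 largest decreases were Afp, Hemgn, Mki67, Cd24a, Slc4a1, Ube2c, Bex1, Tmcc2, Rrm2 and Ermap. Tmcc2, of the red cell list, read 24.3 and 44.1 in adult liver, against 3689 and 3887 in 16.5 dpc liver (115-fold), with 1 adult array at the floor. All 10 read below the detection level on both adult arrays, so their order and folds are not exact. By list these 10 comprised 4 red cell genes, 3 division genes and 3 oncofetal or hepatoblast genes.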

How the data were processed

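The values were intensities of 45101 probe sets, as the authors deposited them, on a linear scale with some readings below 0. Steps of scaling and background correction were not given in the sources used here. Probe sets were named from the platform annotation: 34945 had 1 gene symbol, 932 several and 9160 none, the last 2 kinds being left out, as were 64 controls; 34741 matched RefSeq by gene ID. The 14 liver arrays entered 1 limma fit, and 4 arrays of the rest of the embryo were not used. Values below 24.4 (the 20th percentile) were set to it, log2 was taken, and the probe set with the highest mean log2 stood for its gene. Genes above 74.3 (the 50th percentile) on at least 2 of the 4 arrays were tested with lmFit and eBayes with trend (limma 3.58.1, R 4.3.3), with Benjamini-Hochberg adjustment over 13348 genes and 7 residual degrees of freedom. Differences are adult minus 16.5 dpc. With 2 arrays a group, the number of arrays limits the precision. A fold is a lower bound where both arrays of the dimmer group were at the floor. The fit was tested on simulated data. Members and lists (44 lists, 804 genes) were chosen with earlier results of these data known. The text names the 10 largest changes each way with no overlap, and from each list up to 4 called genes each way and up to 3 within 1 log2, with all members of the paired, heme, embryonic globin and Y-linked lists open to naming. Alternatives changed the floor, the filter, the normalization between arrays, the choice of probe set, the arrays in the fit, the trend and the replicate block, and left out each array in turn; cyclic loess normalization was added after seeing the data.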

Additional observations from a re-analysis of the deposited data

How the results depend on the processing

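The 13 main counts were recomputed under 16 alternatives and 1 chosen after seeing the data, and 217 of the 221 counts stayed within 1.5 times the reported one. With cyclic loess normalization 1882 genes were lower in adult liver in place of 3075, and 8 hepatocyte genes were within 1 log2 in place of 31. With the 4 arrays fitted alone 19 hepatocyte genes were within 1 log2. With an offset of 50 in place of the floor, 417 higher genes had neither 16.5 dpc array above the detection level, in place of 655. The cause was not tested. Leaving out 1 array at a time, higher genes numbered 1340 to 1521 and lower genes 2934 to 3224. With the replicate number as a block, 1443 genes were higher and 3082 lower, and 4514 of the 4523 calls were shared. Some other alternatives shared fewer calls, since a similar count need not hold the same genes. Cyclic loess normalization shared 3279 of the 4523 calls and quantile normalization 3867. The mean over all probe sets of a gene shared 3393, with 2314 genes lower, and the offset of 50 shared 3374. Replicate numbers did not pair the arrays: deviations of same-numbered arrays correlated at -0.16 between adult and 16.5 dpc, and over 21 pairs of groups at -0.38 to 0.25, with 5 above 0.1. Signal over background limits genes near the detection level, and 2 arrays a group limit all intervals.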
